A study of Arabidopsis thaliana with 22 samples.

Results

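Chloroplasts and mitochondria keep small genomes of their own beside the nuclear genome. The plastid genome encodes core subunits of both photosystems, of the cytochrome b6f complex, of ATP synthase and of an NDH complex that moves electrons around photosystem I, together with ribosomal proteins and subunits of a bacterial-type RNA polymerase. The mitochondrial genome encodes subunits of the respiratory chain, a few ribosomal proteins and proteins that attach heme to c-type cytochromes. Most genes of the plastid are transcribed in long shared transcripts that are cut and processed afterwards, and most other proteins of both organelles come from nuclear genes.

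The transcripts described here are those that the ATH1 array reads from these 2 genomes. They were chosen by number, as the probe sets whose identifiers begin with a number from 244901 to 245050, and without those named for a nuclear gene. Of the 150 probe sets in that range, 13 carried the name of a nuclear locus and 2 more (YAB5 and AR781) a gene that the RefSeq table of assembly TAIR10.1 places in the nucleus. That left 135 members of 22746 probe sets, of which 77 were named for a plastid gene, 13 for a mitochondrial gene and 45 for no gene. The 77 plastid members stood for 76 gene names, as rps12 had 2 probe sets, and RefSeq lists 78 protein-coding names for that genome. Among these names, 7 lie in the inverted repeat and have 2 gene copies, which a probe set cannot tell apart. Of the members without a name, 10 were numbered at the upper end of the range, among probe sets named for nuclear loci of chromosome 2, so their genome is not known here. Nuclear chromosome 2 also holds a long copy of mitochondrial DNA, and transcripts of that copy cannot be told apart from those of the organelle.

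The RNA came from *Arabidopsis thaliana* of 2 lines, from green tissues by the labels and by the array section of the methods. The section of the methods on RNA extraction names green tissues or whole seedlings. The GL1-GR line carries pGL1::GL1-GR in a *gl1* mutant, and the GL3-GR line carries pGL3::GL3-GR in a *gl3 egl3* double mutant. In both, a regulator of leaf hair (trichome) formation is driven by its own promoter and fused to the hormone-binding part of the glucocorticoid receptor (GR), so that it acts only once dexamethasone (DEX) is given. The Mock groups of the same line carry the same fusion and mutations and received ethanol. Seedlings were pooled for each extraction and collected 4 h or 24 h after treatment, which gives 8 groups of 3 arrays each, except for the Mock and DEX groups of GL3-GR at 24 h, with 2 arrays each.

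Values are log2 GCRMA expression values. The 22 arrays fell into 4 sets, each line at each time, that look separately normalized, so that DEX was tested against Mock within a set only and levels between sets are given without a test. The number of arrays limits the precision. The methods state that biologically independent materials were used, while the labels do not say how the replicates were grown. The tests measure the spread between these samples. The nuclear genes of photosynthesis that mark green tissue were found by name for 5 of 34 loci on the list (PSAE-1, PSAN, PSBW, LHCB4.1 and ATPC1), and their median lay between 12.08 and 13.27 on each array. Of the root and flower markers, 3 of 7 had a named probe set. PYK10, a β-glucosidase abundant in roots, lay between 8.98 and 13.26, above at least 95.4% of the probe sets of each array, and the root hair genes EXPA7 and EXPA18 lay within 0.5 of the lowest value on every array. Whether root tissue was present was not tested. Fewer organelles or cells and less RNA per organelle cannot be told apart in such samples.

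All 77 plastid members were above the filter on low values (above the array's 40th percentile on at least 2 arrays), as were 10 of the 13 mitochondrial members and 21 of the 45 without a name. The mean value of a plastid member over the 22 arrays ran from 4.10 for ndhF, an NDH subunit, to 13.29 for psaB, with a median of 11.1, and none came within 0.5 of an array's lowest value. The mitochondrial means ran from 2.19 to 9.89 with a median of 4.89. The mitochondrial genes ccb203 (ccmFN2, cytochrome c maturation), nad7 (complex I) and matR (an intron maturase) did not pass the filter. These are values of different probe sets and rank no transcript against another. The median of the plastid members on an array lay between the 93.96 and 99.27 percentiles of all probe sets of that array, and that of the tested mitochondrial members between the 48.36 and 68.59 percentiles.

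The 3 plastid members with the highest mean values were psaB, which encodes a core protein of photosystem I, rps7, a protein of the small ribosomal subunit, and atpE, the epsilon subunit of ATP synthase. In GL1-GR, psaB read 13.40, 13.52 and 13.54 on the Mock arrays of 4 h, 13.38, 13.45 and 13.45 on the DEX arrays of 4 h, 13.84, 13.51 and 13.78 on the Mock arrays of 24 h and 13.61, 13.71 and 13.68 on the DEX arrays of 24 h. In GL3-GR, psaB read 12.41, 12.66 and 12.88 (Mock, 4 h), 12.07, 12.75 and 12.77 (DEX, 4 h), 13.44 and 13.51 (Mock, 24 h), and 13.57 and 13.53 (DEX, 24 h). Mock and DEX arrays of psaB overlapped in all sets but GL3-GR at 24 h, where both DEX arrays were higher. For rps7 the GL1-GR values were 12.96, 13.11 and 13.16 (Mock, 4 h), 12.97, 12.94 and 13.14 (DEX, 4 h), 13.64, 13.54 and 13.68 (Mock, 24 h), and 13.57, 13.66 and 13.62 (DEX, 24 h). The GL3-GR values of rps7 were 12.20, 13.06 and 13.16 (Mock, 4 h), 12.41, 12.97 and 12.98 (DEX, 4 h), 13.51 and 13.49 (Mock, 24 h), and 13.56 and 13.49 (DEX, 24 h). The first array of both GL3-GR groups of 4 h was the lowest of its group for rps7, and Mock and DEX arrays overlapped in every set. For atpE the values were 12.90, 12.99 and 13.02 (Mock) and 12.88, 13.06 and 13.21 (DEX) in GL1-GR at 4 h, and 13.47, 13.25 and 13.40 (Mock) and 13.33, 13.35 and 13.34 (DEX) at 24 h. In GL3-GR, atpE read 12.85, 13.01 and 13.26 (Mock) and 12.43, 13.11 and 13.02 (DEX) at 4 h, and 13.33 and 13.31 (Mock) and 13.41 and 13.21 (DEX) at 24 h. Its Mock and DEX arrays overlapped in every set as well.

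Among the mitochondrial members the highest means belonged to nad4 (complex I), to 244944_s_at, whose entry lists several genes of the mitochondrial ribosome, and to ccb382 (now ccmFN1, cytochrome c maturation). In GL1-GR, nad4 read 9.89, 10.15 and 10.08 (Mock, 4 h), 10.04, 9.94 and 10.01 (DEX, 4 h), 10.49, 10.14 and 10.16 (Mock, 24 h), and 10.14, 10.28 and 10.18 (DEX, 24 h). In GL3-GR it read 8.71, 9.48 and 9.54 (Mock, 4 h), 8.75, 9.63 and 9.47 (DEX, 4 h), 9.95 and 9.97 (Mock, 24 h), and 10.22 and 10.25 (DEX, 24 h). The DEX arrays of nad4 were above both Mock arrays in GL3-GR at 24 h and overlapped with Mock in the other sets. For 244944_s_at the GL1-GR values were 9.66, 9.70 and 9.73 (Mock, 4 h), 9.55, 9.33 and 9.59 (DEX, 4 h), 10.52, 10.12 and 10.35 (Mock, 24 h), and 10.14, 10.24 and 10.17 (DEX, 24 h). The GL3-GR values were 7.76, 8.0 and 8.55 (Mock, 4 h), 8.09, 8.32 and 7.59 (DEX, 4 h), 10.56 and 10.67 (Mock, 24 h), and 10.76 and 10.82 (DEX, 24 h). In 2 sets this probe set did not overlap, with DEX lower in GL1-GR at 4 h and higher in GL3-GR at 24 h. For ccb382 the values were 7.61, 7.66 and 7.50 (Mock) and 7.83, 7.62 and 6.94 (DEX) in GL1-GR at 4 h, and 9.67, 9.03 and 9.51 (Mock) and 9.20, 9.10 and 8.94 (DEX) at 24 h. In GL3-GR, ccb382 read 7.98, 6.49 and 7.53 (Mock) and 9.14, 7.72 and 7.25 (DEX) at 4 h, and 8.96 and 9.09 (Mock) and 9.29 and 9.11 (DEX) at 24 h. The lowest and highest of its GL3-GR Mock arrays of 4 h thus lay further apart than Mock and DEX did in any set.

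**Figure D1:**
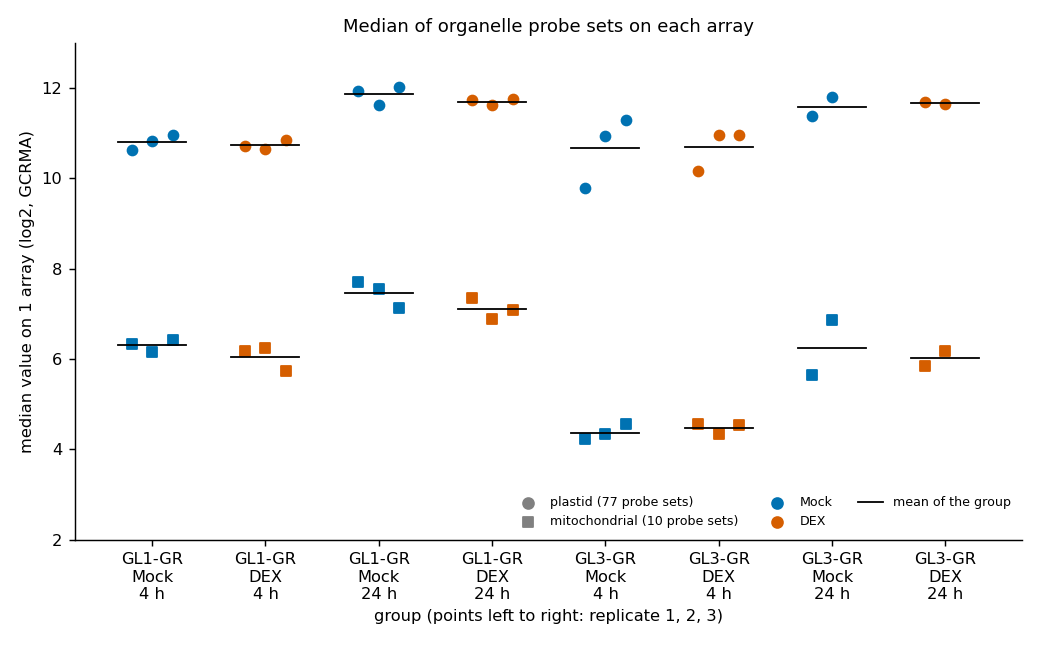
Each point is the median value on 1 array (log2 GCRMA, vertical axis) of the 77 plastid probe sets (circles) or the 10 tested mitochondrial probe sets (squares), by group, with the group mean as a line. The first Mock and first DEX array of GL3-GR at 4 h have the lowest plastid medians, 9.77 and 10.16, while their mitochondrial medians are 4.23, the lowest of that set, and 4.57, the highest.

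The first question was whether activation of GL1 or GL3 by DEX was followed by a change of organelle transcripts. None of the 108 tested members passed limma's test (Benjamini-Hochberg adjusted p under 0.05 over all 16349 tested probe sets) in any of the 4 DEX comparisons. In GL1-GR at 4 h that count of 0 stood beside 4 of all tested probe sets (0.0245%), and 2 of 108 members (1.85%) had an unadjusted p under 0.05, beside 2.78% of all tested probe sets. In GL1-GR at 24 h 0 of all tested probe sets (0%) were called, and 1 member (0.926%) had an unadjusted p under 0.05, beside 1.17% of all. In GL3-GR at 4 h 146 of all tested probe sets (0.893%) were called, and 5 members (4.63%) had an unadjusted p under 0.05, beside 16.7% of all. In GL3-GR at 24 h 0 of all tested probe sets (0%) were called, and 0 members had an unadjusted p under 0.05, beside 1.36% of all. With the methods' t-test, which fits each probe set alone, 0 members passed after Benjamini-Hochberg adjustment in any of the 4 comparisons.

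Nuclear genes that serve the same organelles were read beside them. Of the nuclear genes found by name, 5 of photosynthesis, 5 of respiration and 1 of organelle transcription were tested, and none was called by limma in any DEX comparison. The median log2 change of the photosynthesis genes was 0.11 in GL1-GR at 4 h (5 of 5 higher), -0.01 in GL1-GR at 24 h, -0.21 in GL3-GR at 4 h (5 of 5 lower, with a median of -0.08 after quantile normalization) and -0.03 in GL3-GR at 24 h. The respiration genes had medians of 0.05, 0.08, -0.17 and 0.04 in that order, and AT5G15700 changes of 0.05, -0.01, 0.11 and -0.01.

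In GL1-GR at 4 h, 57 of the 77 plastid members had lower means after DEX, with a median log2 change of -0.12, beside 47.0% of all tested probe sets with lower means and a median of 0.00. The photosynthetic genes with lower means included 5 of 5 members of photosystem I (median -0.08), 10 of 15 of photosystem II (median -0.09), 6 of 6 of the cytochrome b6f complex (median -0.25), 4 of 6 of ATP synthase (median -0.12) and 11 of 11 of the NDH complex (median -0.17). The 4 subunits of the plastid RNA polymerase also had lower means (median -0.23), whereas the large ribosomal subunit had 3 of 9 members with lower means (median 0.04) and the small subunit 6 of 11 (median -0.01). The arrays of DEX and Mock did not overlap for 12 plastid members, 11 of them lower, and for 1 mitochondrial member, beside 12.6% of all tested probe sets. Leaving out 1 array at a time moved the plastid median between -0.19 and -0.05. The medians of the plastid members were 10.63, 10.83 and 10.95 on the Mock arrays and 10.71, 10.65 and 10.85 on the DEX arrays, which overlapped. Plastid members varied together from array to array, so counts of members are not counts of independent changes.

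The plastid member with the smallest p in this comparison was psbE, the alpha subunit of the cytochrome bound to photosystem II. It read 10.47, 10.50 and 10.53 on the Mock arrays and 9.69, 9.86 and 9.94 on the DEX arrays. All 3 DEX arrays lay below all 3 Mock arrays. The log2 change was -0.67 ± 0.30 (SE, n = 3 and 3), a 1.59-fold lower level. It failed the correction, with an unadjusted p of 0.0389 and a limma adjusted p of 1.00. The spread of psbE was small here (SD 0.03 in Mock and 0.13 in DEX), while the fit shares 1 spread over the 8 groups, including the GL3-GR Mock group of 4 h with an SD of 0.94. Fitted to its own groups alone, psbE had a limma adjusted p of 0.351. With weights for the quality of each array, psbE passed at an adjusted p of 0.0142 (limma, log2 change -0.70). Without the GL3-GR arrays of 4 h its limma adjusted p was 0.0679.

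The photosystem genes psbN and psaA followed. psbN, a small protein needed to build photosystem II, read 9.33, 9.35 and 9.13 (Mock) against 8.74, 8.57 and 8.74 (DEX), a log2 change of -0.58 ± 0.36 (SE) with no overlap. psaA, the partner of psaB in the core of photosystem I, read 10.76, 10.95 and 10.58 (Mock) against 10.76, 10.39 and 9.55 (DEX), which overlapped, and the lowest DEX array set most of its log2 change of -0.53 ± 0.37 (SE), which was -0.19 without that array. Of the mitochondrial members, nad4L, a small membrane subunit of complex I, read 6.45, 6.37 and 7.0 (Mock) against 6.37, 6.36 and 5.84 (DEX). Its groups overlapped, and the log2 change of -0.42 ± 0.20 (SE) had an unadjusted p of 0.0478 and a limma adjusted p of 1.00. The heme attachment gene ccb452 (now ccmFC) read 7.55, 7.26 and 6.90 (Mock) against 7.15, 7.08 and 6.22 (DEX), and nad9, of complex I, 4.89, 5.65 and 5.08 (Mock) against 5.11, 5.03 and 4.89 (DEX). Both overlapped, and the sign of nad9 rested on 1 array, since its log2 change was -0.20 with all arrays and 0.02 without the second Mock array.

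In GL1-GR at 24 h, 60 of the 77 plastid members had lower means after DEX, but the median log2 change was -0.05, beside 52.4% lower and a median of 0.00 over all tested probe sets. Leaving out 1 array at a time moved the plastid median between -0.15 and 0.01. The medians of the plastid members were 11.92, 11.62 and 12.02 on the Mock arrays and 11.73, 11.62 and 11.74 on the DEX arrays, which overlapped. No plastid member separated the groups, and 1 mitochondrial member did, beside 5.84% of all tested probe sets. All 10 mitochondrial members had lower means, with a median of -0.16, but 9 after quantile normalization over all arrays. The count of 10 includes orfX, with group means of 2.20 (Mock) and 2.19 (DEX), close to the lowest values of the arrays. Its log2 change of -0.0009 gives no direction.

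The mitochondrial member that separated was cox2, which encodes subunit II of cytochrome c oxidase. It read 6.87, 6.82 and 6.18 (Mock) and 6.17, 5.88 and 5.79 (DEX), so that the third Mock array lay just above the first DEX array. The log2 change was -0.68 ± 0.18 (SE, n = 3 and 3), a 1.60-fold lower level, with an unadjusted p of 0.00135 and a limma adjusted p of 1.00. Without the third Mock array the change was -0.90 (limma adjusted p = 0.181), and with array weights it passed, at -0.77 and an adjusted p of 0.0277. At 4 h in the same line cox2 read 6.22, 5.95 and 5.96 (Mock) and 5.97, 6.12 and 5.63 (DEX), which overlapped. The difference between its responses at 24 h and 4 h was -0.54 ± 0.25 (SE, unadjusted p = 0.0457, limma adjusted p = 1.00). The next members were ccb452, at 8.54, 8.30 and 8.07 (Mock) against 8.15, 7.81 and 7.90 (DEX), and nad9, at 3.06, 2.78 and 2.85 (Mock) against 2.85, 2.44 and 2.85 (DEX), where both pairs of groups overlapped.

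The plastid members with the smallest p at that time were petN, a small subunit of the cytochrome b6f complex, ycf2, a large essential protein of the inner envelope, and the NDH subunit ndhJ. petN read 7.95, 7.64 and 8.79 (Mock) against 6.97, 6.95 and 8.10 (DEX), a log2 change of -0.79 ± 0.55 (SE). ycf2 read 8.37, 7.80 and 9.21 against 7.65, 8.17 and 8.17, and ndhJ 9.53, 8.79 and 9.66 against 8.56, 8.93 and 9.20. In all 3 genes the groups overlapped and the second Mock array was the lowest Mock array. That array was below its group mean in all but 2 of the 77 plastid members, and the limma adjusted p was 1.00 for each of the 3 genes.

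**Figure D2:**
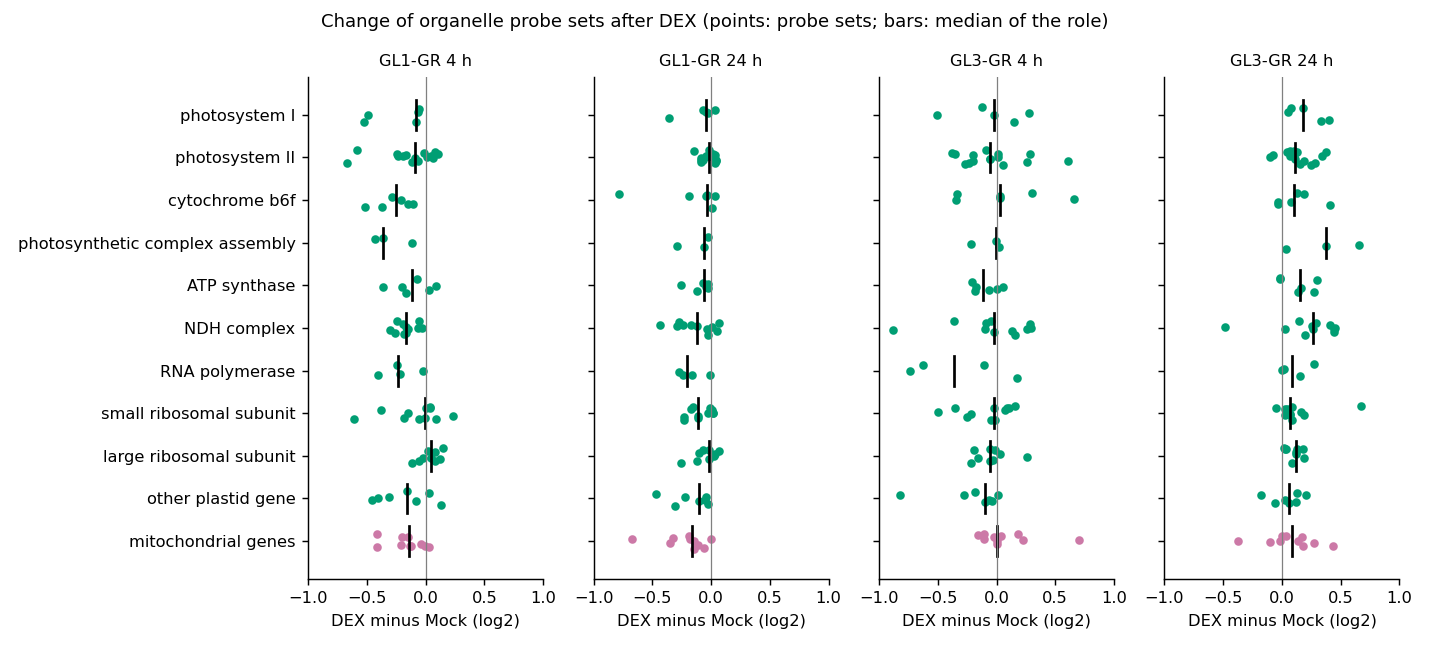
The horizontal axis of each panel is the DEX minus Mock difference (log2) of single probe sets in 1 comparison, grouped by role, with the median of the role as a bar. Plastid medians lie between -0.37 and 0.04 in GL1-GR at 4 h and between 0.06 and 0.38 in GL3-GR at 24 h, and no point passed limma's test.

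In GL3-GR at 4 h, 49 of 77 plastid members had lower means after DEX (median log2 change -0.05), beside 58.8% of all tested probe sets (median -0.06). After quantile normalization over all arrays the plastid median was 0.03 and 32 members were lower, so the direction rested on the scaling. The mitochondrial median was 0.00, with 5 of 10 members lower. No plastid member separated the groups, and 2 mitochondrial members (nad4L and ccb452) did, both higher, beside 7.96% of all tested probe sets.

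The plastid member with the smallest p was ndhB, a membrane subunit of the NDH complex whose gene lies in the inverted repeat. It read 5.47, 6.89 and 7.34 (Mock) and 5.64, 5.64 and 5.79 (DEX). The first Mock array lay below all DEX arrays and the other Mock arrays above them. The log2 change was -0.88 ± 0.33 (SE, n = 3 and 3), a 1.84-fold lower level, with an unadjusted p of 0.0157 and a limma adjusted p of 0.186. psbE read 9.05, 10.59 and 10.75 (Mock) and 10.78, 10.97 and 10.47 (DEX), which overlapped, and its change of 0.61 ± 0.30 (SE) was 0.07 without the first Mock array. ycf2 read 7.19, 8.64 and 9.11 (Mock) and 7.41, 7.13 and 7.94 (DEX), which differed by -0.82 ± 0.41 (SE) with an adjusted p of 0.326 in limma.

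Of the mitochondrial genes, the change of ccb382 was 0.71 ± 0.40 (SE, limma adjusted p = 0.388). nad4L read 5.35, 5.51 and 5.52 (Mock) and 5.73, 5.57 and 5.62 (DEX), a difference of 0.18 ± 0.20 (SE). ccb452 read 4.62, 4.70 and 4.70 (Mock) and 5.26, 4.72 and 4.70 (DEX), where 1 DEX array held nearly all of the difference of 0.22 ± 0.30 (SE). These separations were thus of the size of a few hundredths between neighbouring arrays.

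The count of 0 called members in this set moved most with 1 array, and it was 1 to 2 under quantile normalization, with array weights or without the third DEX array. Without the first Mock array, 12 of the 108 members passed limma's test (11.1%), beside 1646 of all tested probe sets (10.1%). Of those 12, 7 were plastid genes and all 7 were lower after DEX, namely ndhB (-1.43), rpoB (-1.61), rpoC1 (-1.27), ycf2 (-1.38), rps14 (-1.21), petD (-1.03) and rpl36 (-0.59), with limma adjusted p from 0.000655 for ndhB to 0.0401 for rps14. Here rpoB and rpoC1 encode the beta and beta-prime subunits of the plastid RNA polymerase, petD encodes subunit IV of the cytochrome b6f complex, and rps14 and rpl36 encode ribosomal proteins. All 77 plastid members were below their group mean on the Mock array left out. Its removal alone thus moved every plastid change downward, so the shared direction of these 7 genes is no separate result. The share of members called was also near that of all tested probe sets. Without both first arrays, Mock and DEX, 12 members passed (11.1%), of which 11 had also passed without the first Mock array alone and rps12 (244939_at) stood in place of rps14, beside 3183 of all tested probe sets (19.5%). Without the first DEX array instead, 0 members passed, beside 1755 of all tested probe sets (10.7%). When the spread was taken from the GL3-GR arrays of 4 h alone, 0 members and 0 of all tested probe sets passed, with or without these arrays, and 20 members (18.5%) had an unadjusted p under 0.05 without the first Mock array, beside 8.83% of all, and 15 (13.9%) without both first arrays, beside 14.1% of all. The plastid median ran from -0.47 to 0.21 over the fits that left out 1 array.

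The arrays of that set stood apart in their plastid values. The median of the 77 plastid members was 9.77, 10.94 and 11.29 on the GL3-GR Mock arrays of 4 h and 10.16, 10.96 and 10.96 on the DEX arrays. On the first Mock array all 77 plastid members were below their group mean, by 0.19 to 1.76, with a median deviation of -0.89, while 8495 of the 16349 tested probe sets were below theirs and the median over them was -0.01. On the third Mock array all 77 were above their group mean, with a median of 0.60. On the first DEX array 69 of 77 were below the group mean (median -0.45), where the median over all tested probe sets was 0.11. The deviation on the first Mock array was -1.32 at the median for the cytochrome b6f complex, -1.23 for the RNA polymerase, -1.20 for photosystem I and -1.10 for the NDH complex, against -0.67 for ATP synthase and -0.62 for the large ribosomal subunit.

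The 10 mitochondrial members deviated less at the median, but several had low values in this set. The group means (Mock and DEX) were 2.42 and 2.39 for cox2, 2.83 and 2.72 for nad9, and 2.97 and 2.80 for ccb206. How far such low values limited the deviations was not tested. The median of the 10 members was 4.23, 4.33 and 4.56 on the Mock arrays, in the same order as the plastid medians. On the DEX arrays it was 4.57, 4.35 and 4.53, where the first was the highest. On the first Mock array 8 of 10 were below their group mean, with a median deviation of -0.11, and on the first DEX array 5 of 10 were, with a median of 0.00. nad4 was the lowest of its group on both first arrays. The 5 nuclear photosynthesis genes on the first Mock array were all below their group mean, by 0.15 to 0.39 (median -0.33), a smaller deviation than the median of the plastid genes, and 4 of these 5 genes were above their group mean on the first DEX array, with a median of 0.08. The 5 nuclear respiration genes were all above their group mean on the first DEX array (median 0.55), and none was above it on the third (median -0.47). PYK10 was above its group mean on both first arrays, by 0.50 (Mock) and 0.45 (DEX), and below it on the third arrays, at -0.47 and -0.52. AT5G15700 deviated by -0.75, 0.76 and -0.01 on the Mock arrays and by -0.64, 0.32 and 0.32 on the DEX arrays. What set these arrays apart was not tested.

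**Figure D3:**
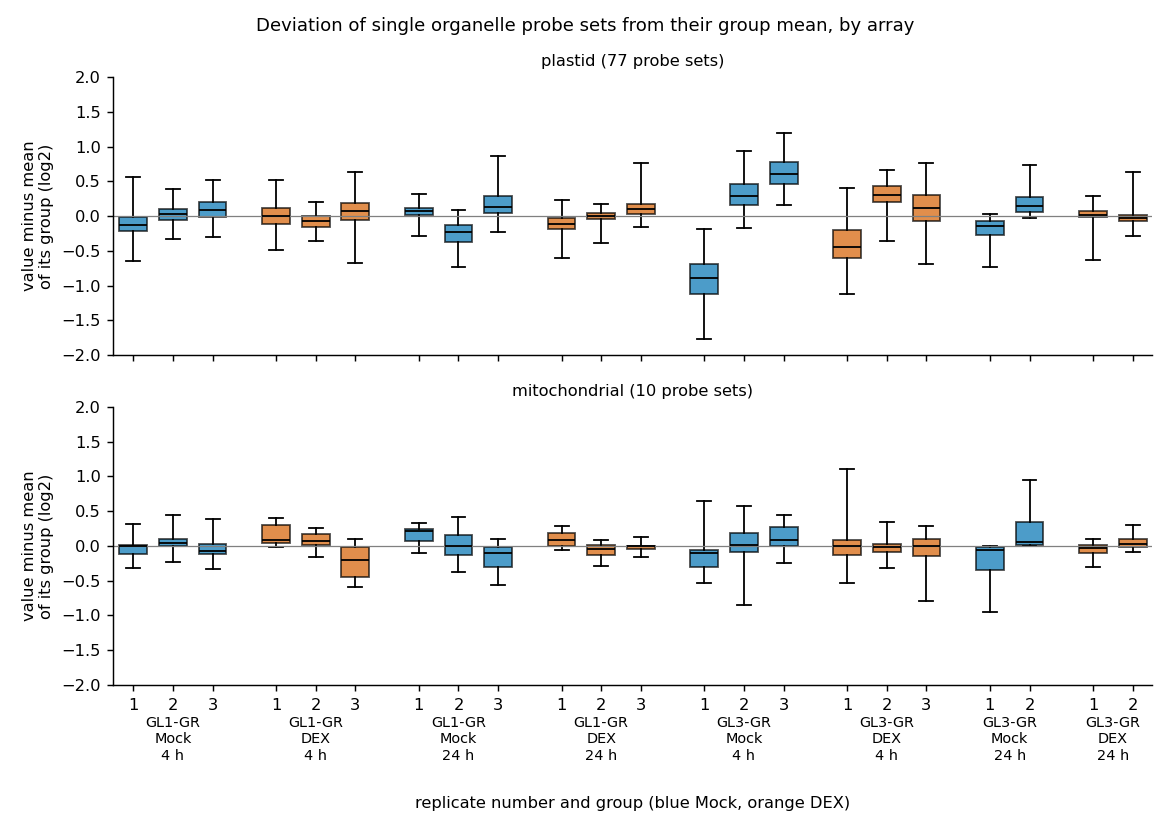
Each box shows how far single plastid (top, 77) or tested mitochondrial (bottom, 10) probe sets on 1 array lie from the mean of their group (log2, vertical axis); boxes span the quartiles, whiskers the whole range, and the line is the median. On the first Mock array of GL3-GR at 4 h every plastid probe set lies below 0, from -0.19 to -1.76.

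The spread within a group was larger in GL3-GR at 4 h than in the other sets for plastid genes. The median SD of a plastid member within a group was 0.19 in GL1-GR at 4 h, 0.18 in GL1-GR at 24 h, 0.67 in GL3-GR at 4 h and 0.16 in GL3-GR at 24 h, against 0.16, 0.17, 0.39 and 0.10 for all tested probe sets. The mitochondrial members had 0.25, 0.20, 0.25 and 0.12. Single mitochondrial members ran from 0.0035 for orfX to 0.88 for ccb382 in GL3-GR at 4 h, with 0.47 for nad4. In GL3-GR at 4 h the SD of single plastid members ran from 0.25 for rpl2, of the large ribosomal subunit, to 1.14 for rpoB. Across the 22 arrays the deviation of a member from its group mean had a Spearman correlation above 0.5 with the median plastid deviation for 74 of 77 plastid members (median 0.83), and with the mitochondrial one for 4 of 10 mitochondrial members (median 0.49). The points share their arrays, and the correlation includes the member itself, so this is a description.

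In GL3-GR at 24 h, 66 of 77 plastid members had higher means after DEX, with a median log2 change of 0.12, while 59.9% of all tested probe sets had lower means and their median was 0.00. All 9 members of the large ribosomal subunit (8 after quantile normalization), 10 of 11 of the small subunit, 10 of 11 of the NDH complex, 13 of 15 of photosystem II, 5 of 5 of photosystem I, 3 of 3 assembly factors, 4 of 6 of the cytochrome b6f complex, 4 of 6 of ATP synthase, 3 of 4 of the RNA polymerase and 5 of 7 other genes were higher. Of the plastid members, 19 were higher and 1, psbM of photosystem II, lower without overlap, and of the mitochondrial members 4 were higher and 1 lower, beside 31.7% of all tested probe sets, with 2 arrays in each group. Without the first Mock array the plastid median was -0.04, and without the second it was 0.25. The first Mock array was below its group mean in all but 3 of the 77 plastid members, and the medians of the 4 arrays were 11.37 and 11.80 (Mock) and 11.69 and 11.63 (DEX).

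The plastid members with the smallest p were ycf3, rps14 and psbD. ycf3, which helps to assemble photosystem I, read 9.34 and 9.97 (Mock) and 10.44 and 10.17 (DEX), a log2 change of 0.65 ± 0.46 (SE, n = 2 and 2). rps14 read 7.60 and 9.08 (Mock) and 9.01 and 9.02 (DEX), and its change of 0.67 turned to -0.06 without the first Mock array. psbD, a reaction centre protein of photosystem II, read 12.92 and 13.07 (Mock) and 13.27 and 13.29 (DEX), a change of 0.28 ± 0.26 (SE). Among mitochondrial genes nad4L read 8.25 and 9.06 (Mock) and 9.11 and 9.06 (DEX), a change of 0.43 ± 0.24 (SE) that was 0.03 without the first Mock array, and nad4 differed by 0.28 ± 0.26 (SE). Each SE uses the spread shared over the 8 groups and is not the spread of the arrays compared. For nad4 the SD within a group was 0.02 in this set and 0.47 in GL3-GR at 4 h. cox2 was lower after DEX as in the other line, at 4.94 and 5.28 (Mock) and 4.78 and 4.69 (DEX), a difference of -0.37 ± 0.22 (SE). All of these had a limma adjusted p of 1.00.

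**Figure D4:**
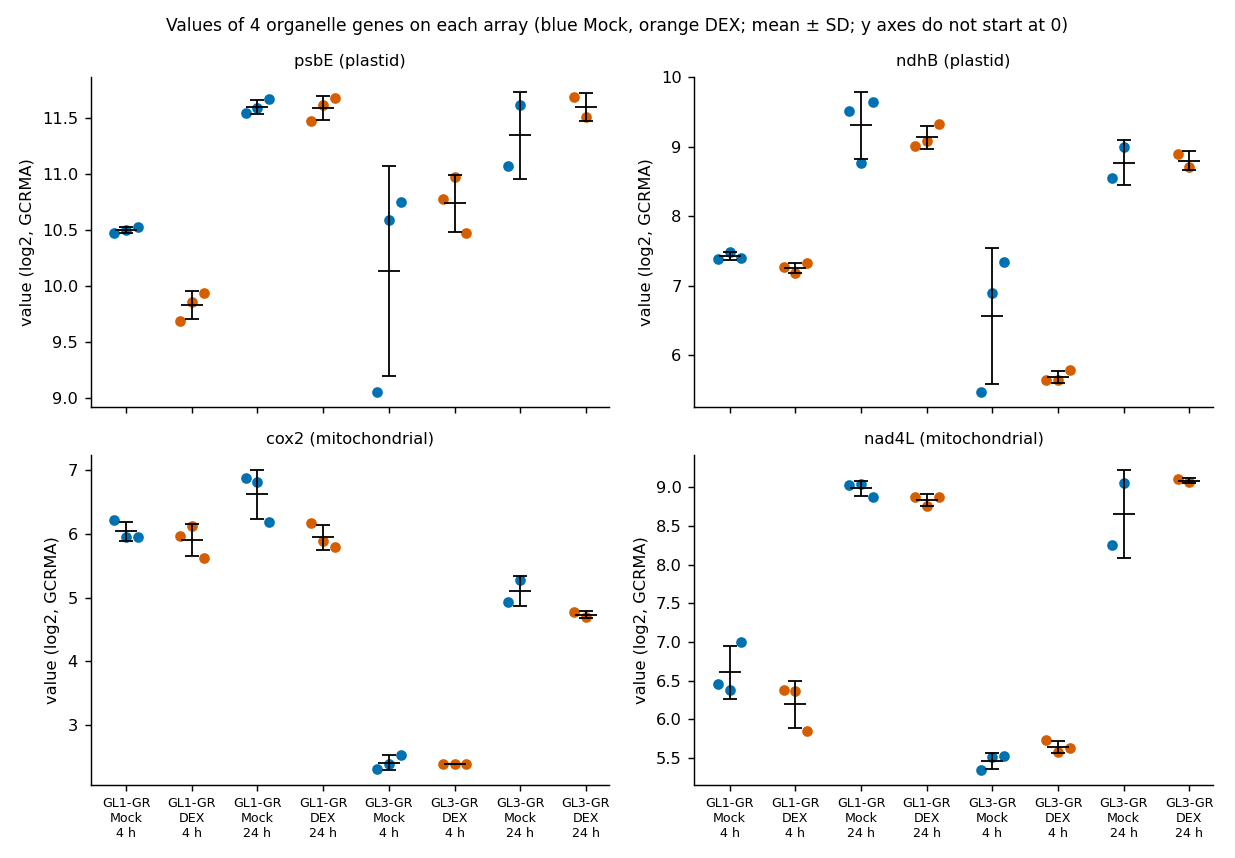
Values on each array (points, log2 GCRMA) of 2 plastid genes, psbE and ndhB, and 2 mitochondrial genes, cox2 and nad4L, by group, with the group mean and SD as bars. psbE separates Mock from DEX in GL1-GR at 4 h and cox2 does so in GL1-GR at 24 h, while ndhB varies from 5.47 to 7.34 among the Mock arrays of GL3-GR at 4 h.

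Whether the response differed between the lines or the times was tested in the same fit. None of the 108 members passed limma's test for a difference. At 4 h, 5 of all tested probe sets (0.0306%) differed between GL3-GR and GL1-GR, and 5 members (4.63%) had an unadjusted p under 0.05, beside 9.20% of all. The smallest was that of psbE, whose response was 1.28 ± 0.42 (SE) more positive in GL3-GR, with an unadjusted p of 0.00777 and a limma adjusted p of 0.390. Among named members nad4L followed, with a difference of 0.60 ± 0.28 (SE) and a limma adjusted p of 0.531. At 24 h, 0 of all tested probe sets (0%) and 0 members differed between the lines, with 0 members at an unadjusted p under 0.05, beside 0.765% of all tested probe sets. Of the plastid members 72 of 77 had a more positive response in GL3-GR (median 0.21), beside 7818 of 16349 tested probe sets (median -0.01), but the GL3-GR part of that difference rests on 1 array, since its plastid median of 0.12 was -0.04 without the first Mock array. Between 24 h and 4 h, 1 of all tested probe sets (0.00612%) differed in GL1-GR, where cox2 alone among the members had an unadjusted p under 0.05 (beside 1.57% of all), and 1 (0.00612%) in GL3-GR, where 0 members did (beside 5.39% of all).

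Levels at 24 h and 4 h were set side by side in the Mock arrays, without a test, since time and normalization cannot be told apart. In GL1-GR 63 of 77 plastid members were higher at 24 h (median log2 difference 0.73), beside a median of -0.13 over all tested probe sets. In GL3-GR 62 were higher (median 0.82), but the median over all tested probe sets was 1.98, and after quantile normalization over all arrays 70 of 77 plastid members were lower at 24 h, with a median of -0.92. In GL1-GR the median after that normalization was 0.22 and 28 members were lower. A direction for the plastid genes as a group was thus not fixed in GL3-GR.

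The order of the plastid genes within that difference was more alike in both lines. Over the 77 members the Spearman correlation of the difference in GL1-GR with that in GL3-GR was 0.60 and the Pearson correlation 0.73, with the same sign in 70 of 77 members, as a description, since probe sequence and normalization are shared. The members of photosystem II stood at the upper end, with 15 of 15 higher at 24 h in both lines (median 1.37 and 1.87), although 2 and 9 of them were lower after quantile normalization. psbL, a small subunit of photosystem II, read 7.71 to 8.34 on the GL1-GR arrays of 4 h and 10.93 to 11.28 on those of 24 h. On the GL3-GR arrays it read 7.0 to 8.42 at 4 h and 11.02 to 11.25 at 24 h, so the times did not overlap in either line. The Mock differences of 3.26 and 3.32 kept their sign after quantile normalization, at 3.10 and 0.69. Its neighbours in the plastid genome, psbJ, psbF and psbE, which are transcribed together with it, differed by 2.11, 0.65 and 1.11 (GL1-GR) and by 2.47, 0.87 and 1.22 (GL3-GR), so probe sets of 1 operon did not move alike. psbM, another small subunit, had the largest positive difference in GL3-GR Mock, from 9.15, 9.71 and 10.07 at 4 h to 13.75 and 13.76 at 24 h, a difference of 4.11, and by 2.36 in GL1-GR.

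The lower end belonged to rpoB. In GL1-GR it read 8.05, 7.25 and 7.25 (Mock) and 7.25, 6.83 and 7.25 (DEX) at 4 h, and 3.71, 3.23 and 4.62 (Mock) and 3.47, 3.53 and 3.73 (DEX) at 24 h. In GL3-GR it read 5.93, 8.63 and 8.52 (Mock) and 7.23, 7.28 and 6.36 (DEX) at 4 h, and 3.35 and 3.35 (Mock) and 3.39 and 3.35 (DEX) at 24 h. No array of 24 h reached the lowest array of 4 h in either line, and the Mock differences of -3.66 (GL1-GR) and -4.34 (GL3-GR) became -2.48 and -5.57 after quantile normalization. In GL3-GR at 24 h rpoB hardly varied (SD within a group 0.02) and lay below the array medians of 4.67 to 4.72. The value 7.25 likewise recurred in GL1-GR at 4 h. How much of these differences belongs to the transcript, and how much to background and normalization, was not tested. The next genes of the same operon differed far less, with -0.19 and -0.81 for rpoC1 and 0.62 and 0.81 for rpoC2, the last of which turned to -1.41 after quantile normalization. Of the 7 genes that a nuclear-encoded polymerase mainly transcribes in plants without the plastid polymerase (rpoB, rpoC1, rpoC2, accD, ycf2, clpP and rps15), 4 were lower at 24 h in each line, with medians of -0.13 and -0.25, and 4 and 7 were lower after quantile normalization. AT5G15700, the one nuclear gene of organelle transcription found by name of 21 loci on that list, had group means of 7.31 at 4 h and 2.70 at 24 h in GL1-GR Mock, and of 3.52 and 3.15 in GL3-GR Mock. On every array of 24 h it lay between the 41.86 and 44.45 percentiles, just above the filter on low values. The size of its difference between the times therefore carries little.

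**Figure D5:**
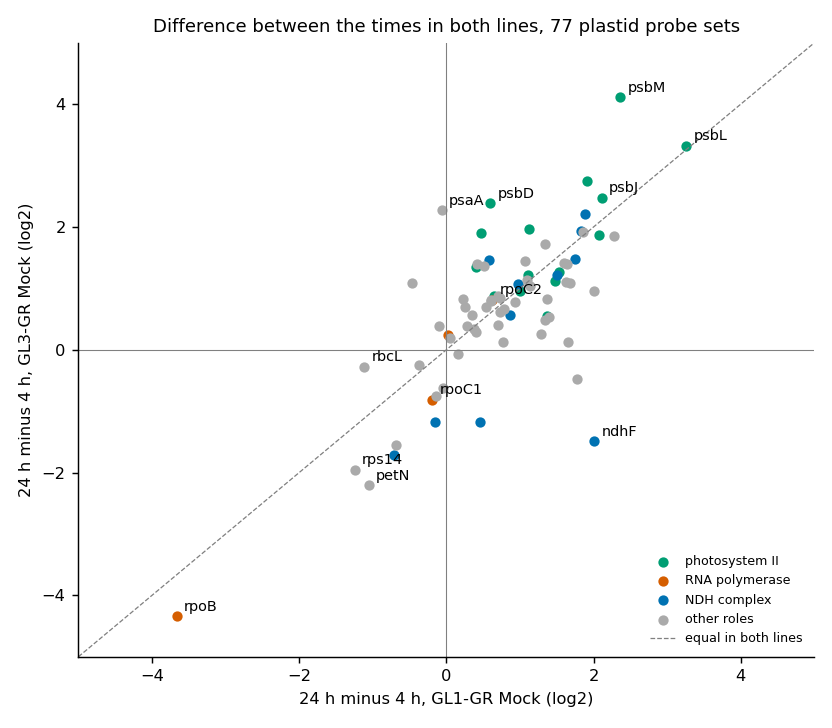
Each point is 1 of 77 plastid probe sets, with the difference between 24 h and 4 h (log2) in GL1-GR Mock on the horizontal axis and in GL3-GR Mock on the vertical axis; the dashed line marks equal differences. psbL (3.26 and 3.32) and psbM (2.36 and 4.11) lie at the upper right and rpoB (-3.66 and -4.34) at the lower left, while ndhF (2.01 and -1.49) and psaA (-0.06 and 2.27) lie far from the line. In GL3-GR Mock at 24 h ndhF had a mean of 3.34, below the array medians of 4.70 and 4.72. Scaling differs between the sets, so distance from the line is not a tested difference between the lines.

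Some plastid genes differed between the lines in that comparison, again without a test. psaA was 10.76, 10.95 and 10.58 at 4 h and 10.72, 10.05 and 11.33 at 24 h in GL1-GR Mock, against 6.93, 8.03 and 8.43 at 4 h and 9.70 and 10.45 at 24 h in GL3-GR Mock. The low values of psaA in GL3-GR at 4 h did not overlap with those of GL1-GR, but the values of that GL3-GR set were lower as a whole. For rbcL, which encodes the large subunit of Rubisco, the values were 11.44, 11.57 and 11.22 at 4 h and 10.38, 9.76 and 10.75 at 24 h in GL1-GR Mock. In GL3-GR Mock they were 9.77, 11.13 and 10.77 at 4 h and 10.15 and 10.42 at 24 h, where the times overlapped. The median of all tested probe sets in GL3-GR Mock was 4.96, 4.96 and 4.89 at 4 h and 7.36 and 7.35 at 24 h. In GL1-GR Mock that median was 7.44, 7.43 and 7.43 at 4 h and 7.17, 7.20 and 7.24 at 24 h. How much of the differences of psaA and rbcL between the lines belongs to the scaling of the sets was not tested.

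The plastid member most like the plastid median over the 22 arrays was matK, the intron maturase of the plastid (Spearman correlation 0.97), and the least like it was rpoB (-0.60). These correlations include the level differences between the groups. For deviations from the group mean, rpoB had a positive correlation of 0.47, and the lowest plastid value was 0.43, for ycf2. In GL1-GR matK read 10.41, 10.59 and 10.75 (Mock, 4 h), 10.46, 10.34 and 10.70 (DEX, 4 h), 12.44, 11.97 and 12.27 (Mock, 24 h), and 11.99, 12.22 and 12.15 (DEX, 24 h). In GL3-GR it read 9.71, 10.93 and 10.98 (Mock, 4 h), 9.84, 10.96 and 10.64 (DEX, 4 h), 11.70 and 12.17 (Mock, 24 h), and 11.97 and 12.14 (DEX, 24 h). matK thus carried the low first arrays of GL3-GR at 4 h as well as the higher values of 24 h. Of the mitochondrial members nad6, of complex I, was the most like its median (0.96) and orfX, now mttB, a gene for a membrane transporter, the least (-0.61). nad6 read 5.37 on all 3 Mock arrays and 5.37, 5.37 and 5.35 on the DEX arrays of GL1-GR at 4 h, and 6.78, 6.70 and 5.89 (Mock) and 6.57, 5.99 and 6.28 (DEX) at 24 h. In GL3-GR, nad6 read 3.83, 3.97 and 4.41 (Mock, 4 h), 3.88, 3.98 and 4.36 (DEX, 4 h), 4.06 and 5.95 (Mock, 24 h), and 4.60 and 5.20 (DEX, 24 h). Its Mock and DEX arrays overlapped in every set. orfX read between 2.16 and 3.46 on all arrays and lay within 0.5 of the lowest value on 10 of 22, so its order carries little. Its values were 2.75, 2.80 and 2.67 (Mock) and 2.75, 2.83 and 2.73 (DEX) in GL1-GR at 4 h, 3.45 on the Mock arrays and 3.45, 3.45 and 3.46 on the DEX arrays of GL3-GR at 4 h, 2.19 to 2.20 on all GL1-GR arrays of 24 h and 2.16 on all GL3-GR arrays of 24 h.

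Between the lines, mitochondrial genes were lower in GL3-GR Mock than in GL1-GR Mock for 9 of 10 members at each time, with a median log2 difference of -1.22 at 4 h and -0.39 at 24 h, and these differences were not tested. At 4 h the median over all tested probe sets was -2.12, and after quantile normalization the mitochondrial median was 0.90, so only the 24 h direction held under both scalings (-0.44 after quantile normalization). The plastid medians were -0.19 at 4 h, which became 1.33 after quantile normalization, and -0.24 at 24 h, which became -0.28. cox2 was lower in GL3-GR at both times under both scalings. It read 2.32, 2.39 and 2.54 on the GL3-GR Mock arrays of 4 h, within 0.5 of the lowest value of the array, against 6.22, 5.95 and 5.96 in GL1-GR, and at 24 h 4.94 and 5.28 against 6.87, 6.82 and 6.18. The arrays of the 2 lines did not overlap, and line, mutant background and normalization cannot be told apart.

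Among the 45 members without a gene name, 21 were tested and none was called in any DEX comparison. 245043_at, one of the 10 numbered among nuclear loci of chromosome 2, had the smallest adjusted p of all members in GL3-GR at 4 h. It read 6.34, 5.43 and 5.23 (Mock) and 6.93, 6.59 and 6.07 (DEX), which overlapped, with a log2 change of 0.86 and a limma adjusted p of 0.0940. It passed after quantile normalization over all arrays (1.06, limma adjusted p = 0.0238), within each set (1.02, adjusted p = 0.0269) and with array weights (1.07, adjusted p = 0.00835). As nothing ties it to either organelle, it is given here only because the rule by number holds it.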

How the data were processed

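RNA of 22 samples was amplified, biotin-labelled and hybridised to ATH1 arrays. The authors' deposited values are log2 GCRMA values per probe set. The number of normalization runs and the annotation are not given in the sources used here. The 64 control probe sets of 22810 were left out. Groups and replicate numbers came from the sample labels. Members and gene lists were chosen with earlier results of these data known. Names came from GEO's platform table and the RefSeq gene table of TAIR10.1, with roles from background knowledge. limma 3.58.1 in R 4.3.3 fitted 1 mean per group over all arrays to the 16349 probe sets above the array's 40th percentile on at least 2 arrays, with Benjamini-Hochberg adjustment and a threshold of 0.05. It was tested on simulated data, and each SE comes from this fit, with a spread shared over the groups. Named members were the 3 with the highest mean and the 3 with the smallest p per genome and comparison, and the most and least like their genome's median. Others named were chosen after their values were seen. Alternatives were other scaling, no filter, own groups, array weights, a replicate block, the methods' t-test and leaving out arrays. No array repeated another (0 identical among 231 pairs, highest correlation 0.998). Sequences were not used here.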

Additional observations from a re-analysis of the deposited data

How the results depend on the processing

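The count of 0 called members stayed 0 without the filter on low values and in fits to the compared groups alone, for all DEX comparisons and response differences where these were run. In GL3-GR at 4 h, quantile normalization over all arrays and within each set gave 1 called member each (245043_at). Array weights gave 1 in GL1-GR at 4 h (psbE), 1 in GL1-GR at 24 h (cox2), 2 in GL3-GR at 4 h (ndhB and 245043_at), 2 for the difference between the lines at 4 h (psbE and 245043_at) and 1 for the difference between the times in GL3-GR (245043_at). The methods' t-test at its threshold of 0.01 gave 4 in GL1-GR at 4 h (psbE, petD, psbN and psaC, all lower) beside 1.07% of all tested probe sets, and 1 in GL3-GR at 24 h (nad4, higher) beside 0.679%. Leaving out 1 array gave 0 to 12 called members in GL3-GR at 4 h, with 12 without the first Mock array and 1 without the third DEX array, 0 to 3 for the difference between the lines at 4 h and 0 to 1 for that between the times in GL3-GR, both highest without the same Mock array. Leaving out both first arrays of that set, chosen after seeing the data, gave 12. Under the fits that left out 1 array, nad9 (DEX against Mock, GL1-GR, 4 h) ran from -0.35 to 0.022, positive without the second Mock array, and rps14 (DEX against Mock, GL3-GR, 24 h) ran from -0.065 to 1.41, negative without the first Mock array. The cause was not tested.

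Whether the replicate numbers pair the samples was not settled by the correlation of same-numbered deviations. That correlation was 0.03, 0.02 and 0.10 in GL1-GR at 4 h and 0.06, 0.16 and 0.35 in GL1-GR at 24 h. It was 0.28, 0.26 and 0.07 in GL3-GR at 4 h. In GL3-GR at 24 h it was -0.14 for both numbers, which is a single value with 2 arrays per group. The plastid members were low on both first arrays of GL3-GR at 4 h, with median deviations of -0.89 (Mock) and -0.45 (DEX). The replicate block gave 0 called members in every comparison, and 54 instead of 146 called probe sets in GL3-GR at 4 h. With the numbers crossed in GL3-GR at 24 h, chosen after seeing the data, the block gave 0 members and 0 of all probe sets.

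Depth, as signal over background, limited 3 mitochondrial members that lay at the floor on 20 to 22 of 22 arrays.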
